A study of Mus musculus with 6 samples.

Results

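The genes described here are 10 genes of the unfolded protein response and of protein folding in the endoplasmic reticulum (ER), taken by symbol from the 18749 gene rows of the 6 count files. They are the chaperones Hspa5, Hsp90b1 and Calr, the disulfide isomerases Pdia3, Pdia4 and Pdia6, the transcription factor Xbp1 and the ER degradation gene Herpud1, and the pair Atf4 and Ddit3 that stands for the Atf4 branch. All 10 had a row in every file and all 10 passed the filter on low counts, with 366 to 36699 reads per gene and library. Poly(A) RNA of aortas was sequenced, all from mice without apolipoprotein E (Apoe-/-), which are prone to aortic aneurysm under angiotensin II. The first group of 3 libraries came from Apoe-/- recipients of Apoe-/-Sept2C111A bone marrow, whose altered septin-2 carries, going by the allele's name, alanine in place of a cysteine, and is called the Sept2C111A marrow group. The second group of 3 libraries came from Apoe-/- recipients of Apoe-/- bone marrow with unaltered septin-2 and is called the Apoe marrow group. Both groups were infused with angiotensin II for 28 days, and in both the recipient and donor cells are labelled Apoe-/-. The change in septin-2 was carried by donor marrow alone, so cells of the wall that belong to the recipient did not have it. The sources used here do not give the share of blood cells replaced by donor marrow, nor the age or sex of the mice. The series title concerns S-nitrosylated septin-2 in macrophages, and the comparison asks how aortic transcripts differed when marrow-derived cells carried the altered protein.

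The unfolded protein response is the set of signals by which a cell adjusts its ER to the load of proteins being folded there. The sensors Atf6 and Ern1 (IRE1) raise chaperones, disulfide isomerases and degradation genes, Ern1 by splicing Xbp1 messenger RNA into its active form. The sensor Eif2ak3 (PERK) phosphorylates the translation factor eIF2alpha, which slows translation while raising translation of Atf4, a factor that drives amino acid supply genes and Ddit3 (CHOP), a factor linked to cell death. Much Atf4 control acts on translation and the splicing of Xbp1 does not alter its gene count, so RNA counts per gene show neither directly. In an artery, cells that secrete collagen and elastin depend on this machinery, as do plasma cells and activated macrophages.

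The response acts on promoters through short elements, and these are shown first. An exact match of 1 such element lay in the windows of 4 of the 6 chaperones and isomerases. The windows of Atf4, Ddit3, Pdia3 and Pdia4 held no exact match. The ER stress response element (ERSE) is CCAAT, then any 9 bases, then CCACG. It was searched on both strands in the 250 bases before each RefSeq transcription start (RefSeq, GRCm38.p6), a window in which 0.113% of all 32851 promoters held a match. A match was present in 4 of the 10 promoters, those of Hspa5, Hsp90b1, Calr and Pdia6. Hsp90b1 held it at 2 places. The matches, written in the direction of the element with its ends in capitals, were:
Hspa5, chr2:34772025-34772043, plus strand: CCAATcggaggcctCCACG
Hsp90b1, chr10:86705638-86705656, minus strand: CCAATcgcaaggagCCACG
Hsp90b1, chr10:86705533-86705551, plus strand: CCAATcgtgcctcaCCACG
Pdia6, chr12:17266491-17266509, plus strand: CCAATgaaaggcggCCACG
Calr, chr8:84847075-84847093, plus strand: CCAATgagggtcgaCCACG

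The related element ERSE-II, which is ATTGG, any 1 base and CCACG, was found in 0.0304% of all promoters and in 1 of the 10, that of Herpud1. The Herpud1 window also held the letters TTGCATCA, the core of the element bound by Atf4 with C/EBP proteins (CARE), which 0.791% of all promoters hold. The element TGACGTGG (UPRE) was in 0 of the 10 windows and in 0.563% of all promoters. The letters CCAAT alone, which ERSE contains, were in 9 of the 10 and in 33.8% of all promoters. No match of ERSE, ERSE-II, UPRE or CARE lay in the windows of Pdia3, Pdia4, Xbp1, Atf4 or Ddit3. Such a match describes letters and not a bound site. Only exact letters were searched, so a window without a match may still hold an element that differs from them. The windows of Hspa5, Pdia6 and Herpud1 carry the matches in capitals, and those of Pdia4 and Atf4 are given as windows without one:
Hspa5 promoter, chr2:34771840-34772089, plus strand: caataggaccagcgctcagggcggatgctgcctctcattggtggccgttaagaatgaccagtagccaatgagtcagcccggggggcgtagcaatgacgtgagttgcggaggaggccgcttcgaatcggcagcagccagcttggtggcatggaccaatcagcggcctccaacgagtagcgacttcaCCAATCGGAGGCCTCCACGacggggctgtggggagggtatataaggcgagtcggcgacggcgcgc
Pdia6 promoter, chr12:17266339-17266588, plus strand: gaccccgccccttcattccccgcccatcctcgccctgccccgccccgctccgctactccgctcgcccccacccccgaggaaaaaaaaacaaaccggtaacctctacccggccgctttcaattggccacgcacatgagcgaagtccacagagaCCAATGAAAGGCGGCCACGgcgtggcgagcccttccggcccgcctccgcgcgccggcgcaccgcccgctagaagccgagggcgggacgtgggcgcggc
Herpud1 promoter, chr8:94386179-94386428, plus strand: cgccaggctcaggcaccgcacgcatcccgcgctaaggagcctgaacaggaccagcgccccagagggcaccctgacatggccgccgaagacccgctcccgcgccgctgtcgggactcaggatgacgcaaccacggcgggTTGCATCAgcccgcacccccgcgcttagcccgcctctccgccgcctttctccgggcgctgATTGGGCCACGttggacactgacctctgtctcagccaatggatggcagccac
Pdia4 promoter, chr6:47813513-47813762, minus strand: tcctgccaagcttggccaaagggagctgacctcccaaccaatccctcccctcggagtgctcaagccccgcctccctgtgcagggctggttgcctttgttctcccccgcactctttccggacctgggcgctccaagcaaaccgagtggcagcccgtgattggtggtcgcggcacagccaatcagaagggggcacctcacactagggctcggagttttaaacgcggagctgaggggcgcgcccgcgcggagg
Atf4 promoter, chr15:80254934-80255183, plus strand: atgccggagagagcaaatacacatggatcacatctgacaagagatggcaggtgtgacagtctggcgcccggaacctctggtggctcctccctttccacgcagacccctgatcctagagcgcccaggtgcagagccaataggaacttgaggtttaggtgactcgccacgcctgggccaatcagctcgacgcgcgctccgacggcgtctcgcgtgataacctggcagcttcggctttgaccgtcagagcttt

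The libraries held 17082719 to 20494928 expected counts. Septin2, the gene altered in the donor marrow, averaged 309.8 ± 35.8 CPM (reads scaled to a common library total after TMM normalisation) in the Sept2C111A marrow group and 313 ± 23.3 CPM in the Apoe marrow group (SD, n = 3 each). A gene count does not read the altered residue, so it is no check of the labels. The label aorta was checked on 7 smooth muscle markers, all detected in every library, with summed levels of 15551 to 23316 CPM in Sept2C111A marrow aortas and 5775 to 18265 CPM in Apoe marrow aortas. The lowest of these was Apoe marrow library 3. Two-sided edgeR quasi-likelihood tests over 14466 genes gave 0 genes at adjusted p under 0.05 in either direction. In bulk tissue, fewer cells of a type and less RNA per cell cannot be told apart.

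The 6 chaperones and isomerases were all lower in Sept2C111A marrow aortas, with log2 fold changes of -0.38 to -0.83, and so were Xbp1 at -0.81 and Atf4 at -0.40, while Herpud1 and Ddit3 stood near 0. edgeR called 0 of the 10 genes lower (background 0%) and 0 higher (background 0%) at adjusted p under 0.05. At unadjusted p under 0.05 it gave 2 of the 10 lower, Pdia4 and Pdia6, against 8.83% of all genes tested, and 0 higher, against 6.17%. DESeq2 called the same 2 lower at adjusted p under 0.05, against 2.89% of all genes, and 0 higher, against 0.985%, and limma-voom with quality weights called 0. The 3 Sept2C111A marrow libraries lay wholly below the 3 Apoe marrow libraries for 4 of the 10, Hsp90b1, Pdia3, Pdia4 and Pdia6, against 11.9% of all genes. A lower fitted level was found for 9 of the 10, against 49.9% of all genes, and a higher one for 1, Herpud1, against 50.1%, and the median log2 fold change of the 10 was -0.47, against 0.00 for all genes tested. This median was -0.31 without Apoe marrow library 1. Without Apoe marrow library 3, DESeq2 called 5 of the 10 lower, Hspa5, Hsp90b1 and Calr being added, and without Sept2C111A marrow library 3 it called 0. Over all genes DESeq2 called 425 lower with every library, 267 without Apoe marrow library 3 and 96 without Sept2C111A marrow library 3.

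**Figure D1:**
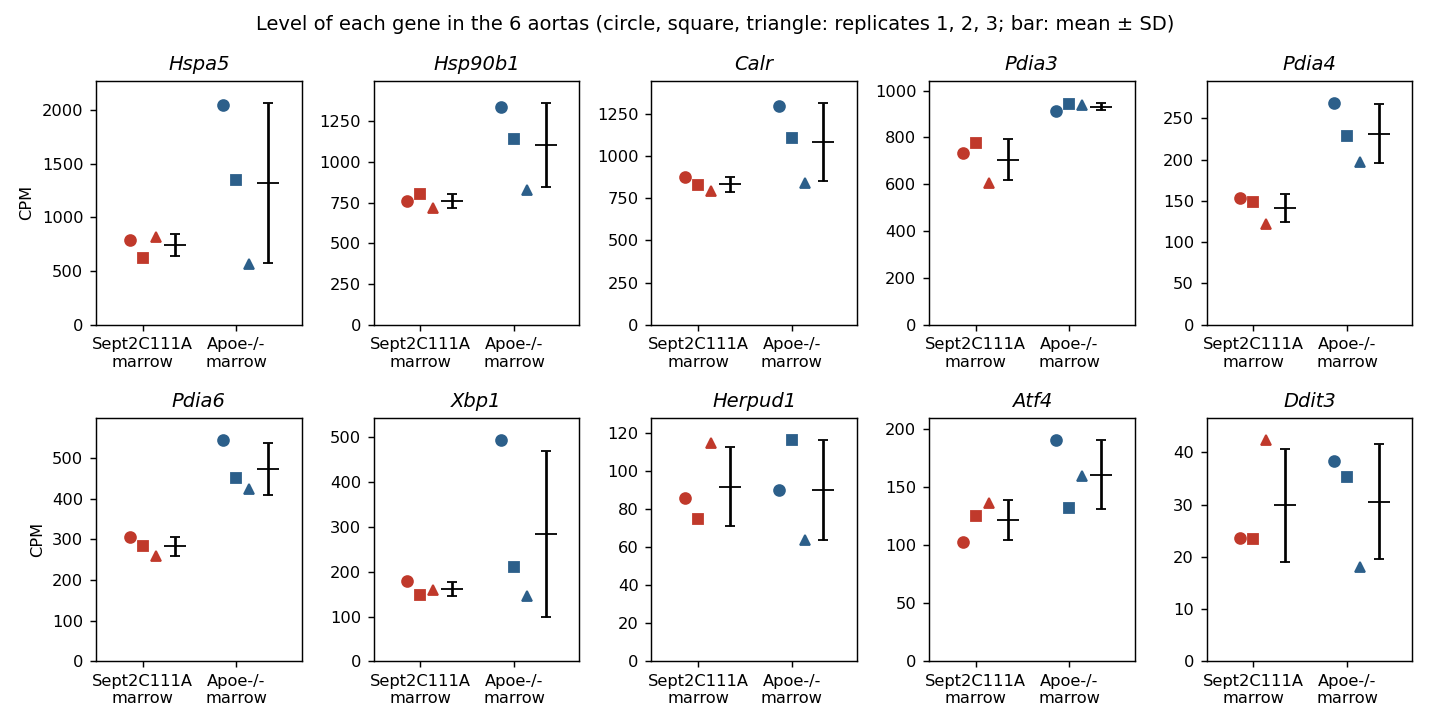
CPM of each gene (vertical axes from 0) in the 3 Sept2C111A marrow aortas (red, left) and the 3 Apoe marrow aortas (blue, right), with the replicate number as symbol and mean ± SD as bar. Hsp90b1, Pdia3, Pdia4 and Pdia6 do not overlap between groups, and Hspa5 and Xbp1 spread widely among the Apoe marrow aortas.

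Hspa5 (chromosome 2, 34771970 to 34777547, plus strand, mm10) encodes BiP, the ER Hsp70 that binds unfolded chains and holds the stress sensors inactive. It stood at 786, 625 and 814 CPM in Sept2C111A marrow aortas, against 2048, 1347 and 565 CPM in Apoe marrow aortas. The Apoe marrow group thus held both the highest and the lowest library, and the groups overlapped. The log2 fold change was -0.83 (SE 0.46, adjusted p = 0.404 by edgeR), and it was -0.36 without Apoe marrow library 1 and -1.19 without Apoe marrow library 3.

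Hsp90b1 (chromosome 10, 86690209 to 86705509, minus strand) encodes GRP94, the ER Hsp90 that folds integrins and Toll-like receptors. It stood at 761, 803 and 718 CPM in Sept2C111A marrow aortas, against 1338, 1140 and 826 CPM in Apoe marrow aortas. The groups were apart, with Sept2C111A marrow library 2 just under Apoe marrow library 3, and the log2 fold change was -0.53 (SE 0.24, adjusted p = 0.352 by edgeR). The gene record of Hsp90b1 overlaps 1810014B01Rik by 4598 bases on the opposite strand and Gm15344 by 977 bases on the same strand. Its values were fractional in 0 of the 6 files. Calr (chromosome 8, 84841850 to 84846934, minus strand) encodes calreticulin, the lectin chaperone that binds calcium and glycoproteins. It stood at 877, 826 and 791 CPM in Sept2C111A marrow aortas, against 1299, 1108 and 838 CPM in Apoe marrow aortas. Apoe marrow library 3 lay inside the Sept2C111A marrow range, and the log2 fold change was -0.38 (SE 0.23, adjusted p = 0.436 by edgeR), or -0.22 without Apoe marrow library 1.

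The disulfide isomerases form and rearrange the disulfide bonds of secreted proteins. Pdia6 (chromosome 12, 17266545 to 17284770, plus strand), which also restrains Ern1 signalling, stood at 307, 283 and 259 CPM in Sept2C111A marrow aortas, against 545, 450 and 423 CPM in Apoe marrow aortas. The gap between the groups was wider than the range within the Sept2C111A marrow group. Its log2 fold change of -0.74 (SE 0.17) corresponds to 0.599 times the Apoe marrow level and had an edgeR adjusted p of 0.316. DESeq2 gave an adjusted p of 0.00158, and 0.00125 to 0.056 when each library was left out in turn. DESeq2 called Pdia6 in 5 of these 6 fits, the exception being the fit without Sept2C111A marrow library 3.

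Pdia4 (chromosome 6, 47796141 to 47813430, minus strand), known as ERp72, stood at 153, 149 and 121 CPM in Sept2C111A marrow aortas, against 268, 228 and 197 CPM in Apoe marrow aortas. These groups were apart as well, with a log2 fold change of -0.71 (SE 0.17, adjusted p = 0.316 by edgeR). DESeq2 gave an adjusted p of 0.0142, and called Pdia4 in 3 of the 6 fits with a library left out (adjusted p 0.00438 to 0.169). The call was lost without Apoe marrow library 1, without Sept2C111A marrow library 1 and without Sept2C111A marrow library 3. Pdia3 (chromosome 2, 121413775 to 121438687, plus strand) encodes ERp57, which works with calreticulin and calnexin on glycoproteins. It stood at 734, 776 and 607 CPM in Sept2C111A marrow aortas, against 915, 942 and 938 CPM in Apoe marrow aortas. The Apoe marrow libraries were nearly level, with an SD of 14.7 CPM, and Pdia3 was the one gene of the 10 with a smaller SD in that group. Its log2 fold change was -0.40 (SE 0.19, adjusted p = 0.361 by edgeR).

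Summed over the 6 chaperones and isomerases, the level was 3619, 3461 and 3310 CPM in Sept2C111A marrow aortas, against 6414, 5215 and 3787 CPM in Apoe marrow aortas. The groups did not overlap in this sum, but Apoe marrow library 3 lay closer to the Sept2C111A marrow libraries than to the other Apoe marrow libraries. Per kilobase of merged exons, over the 6 libraries, Calr had the highest mean level of the 10 at 438 CPM per kb. It was followed by Hsp90b1 at 329.7, Pdia3 at 296, Hspa5 at 275 and Pdia6 at 174 CPM per kb. Ddit3 was last at 33.95 CPM per kb. Neighbours in this order overlapped in their ranges over the 6 libraries, while the lowest level of Calr (362 CPM per kb) lay above the highest of Pdia3 (340.2 CPM per kb).

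Xbp1 (chromosome 11, 5520659 to 5525893, plus strand) encodes the factor activated by Ern1. It stood at 179, 147 and 160 CPM in Sept2C111A marrow aortas, against 493, 211 and 145 CPM in Apoe marrow aortas. One library, Apoe marrow library 1, held far more than any other, and Apoe marrow library 3 held the least. The log2 fold change was -0.81 (SE 0.45, adjusted p = 0.403 by edgeR) and -0.13 without Apoe marrow library 1. Neutrophil markers were highest in that library too, with a sum of 3795 CPM over 7 markers, against 116 and 822 CPM in the other Apoe marrow libraries and 17.02 to 33.6 CPM in the Sept2C111A marrow libraries. The summed platelet and erythroid markers were highest in Apoe marrow library 1 as well, at 214 and 1684 CPM. The part of any of these cells in the level of Xbp1 was not tested.

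Herpud1 (chromosome 8, 94386438 to 94395377, plus strand) encodes a membrane protein that serves the degradation of misfolded ER proteins. It stood at 85.5, 74.6 and 115 CPM in Sept2C111A marrow aortas, against 90.0, 116 and 63.6 CPM in Apoe marrow aortas. The groups overlapped throughout, with a log2 fold change of 0.03 (SE 0.26, adjusted p = 0.969 by edgeR). The difference was -0.17 without Apoe marrow library 3 and 0.26 without Apoe marrow library 2, so it had no settled direction. The gene record of Herpud1 overlaps Gm15890 by 535 bases on the opposite strand, and its values were fractional in 0 of the 6 files.

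Atf4 (chromosome 15, 80255184 to 80257541, plus strand) stood at 103, 126 and 137 CPM in Sept2C111A marrow aortas, against 191, 132 and 160 CPM in Apoe marrow aortas. Sept2C111A marrow library 3 lay just above Apoe marrow library 2, so the groups overlapped by these libraries. The log2 fold change was -0.40 (SE 0.19, adjusted p = 0.360 by edgeR), or -0.25 without Apoe marrow library 1. This size equals that of Pdia3. Ddit3 (chromosome 10, 127290774 to 127296288, plus strand), the Atf4 target CHOP, stood at 23.6, 23.5 and 42.4 CPM in Sept2C111A marrow aortas, against 38.3, 35.3 and 18.1 CPM in Apoe marrow aortas. The highest library and the lowest library each went against the rest of their group. The log2 fold change of Ddit3 was -0.04 (SE 0.36, adjusted p = 0.968 by edgeR), between -0.37 without Sept2C111A marrow library 3 and 0.16 without Apoe marrow library 1. Ddit3 has a second gene record of the same name that overlaps it by 2925 bases on the same strand, and it overlaps Mars by 68 bases and Gm4189 by 15 bases on the opposite strand. Its values were fractional in all 6 files, as were those of Hspa5 and Pdia3, the form that estimated counts take when reads are shared out between genes.

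**Figure D2:**
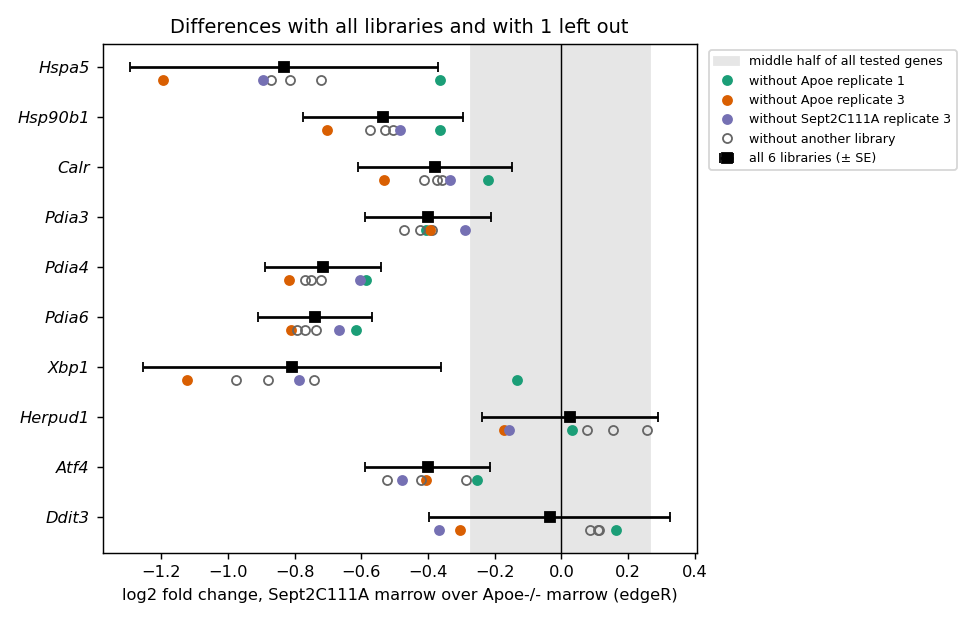
log2 fold change of each gene, Sept2C111A marrow over Apoe marrow, from edgeR with all 6 libraries (squares, ± SE) and with 1 library left out (circles); the grey band spans the quartiles of all tested genes. The 6 chaperones and isomerases, Xbp1 and Atf4 stay below 0 in each fit, Xbp1 reaches -0.13 without Apoe marrow library 1, and Herpud1 and Ddit3 lie on both sides.

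The contrast between the chaperones and the Atf4 branch was taken as mean log2 CPM per library. The mean difference between groups was -0.56 for the 6 chaperones and isomerases and -0.21 for Atf4 and Ddit3, which leaves -0.35 between the branches. Relative to the average of the 6 libraries, the chaperone mean stood at -0.20, -0.27 and -0.37 in Sept2C111A marrow aortas, against 0.59, 0.33 and -0.07 in Apoe marrow aortas, with no overlap. The Atf4 branch stood at -0.36, -0.22 and 0.27 in Sept2C111A marrow aortas, against 0.43, 0.11 and -0.23 in Apoe marrow aortas, with overlap. Its difference between groups was -0.03 without Apoe marrow library 1, -0.07 without Sept2C111A marrow library 1, -0.37 without Apoe marrow library 3 and -0.38 without Sept2C111A marrow library 3. The difference between the branches rested on 1 library. It was 0.16, -0.05 and -0.64 in Sept2C111A marrow aortas, against 0.15, 0.22 and 0.16 in Apoe marrow aortas, and the contrast of -0.35 became -0.12 without Sept2C111A marrow library 3. Because the genes were chosen with results known, no p is given for these means.

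Ratios of reads within a library, do not depend on a scaling factor. There were 0.0301, 0.0376 and 0.0521 Ddit3 reads per Hspa5 read in Sept2C111A marrow aortas, against 0.0187, 0.0262 and 0.0321 in Apoe marrow aortas. Herpud1 reads per Hspa5 read were 0.109, 0.119 and 0.141 in Sept2C111A marrow aortas, against 0.044, 0.0862 and 0.113 in Apoe marrow aortas. In both ratios Apoe marrow library 3 lay above Sept2C111A marrow library 1, and the other Apoe marrow libraries lay below every Sept2C111A marrow library. Pdia6 reads per Pdia4 read, by contrast, were 2.01, 1.91 and 2.13 in Sept2C111A marrow aortas, against 2.03, 1.97 and 2.14 in Apoe marrow aortas. The isomerase pair thus kept nearly 1 ratio in all 6 libraries.

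**Figure D3:**
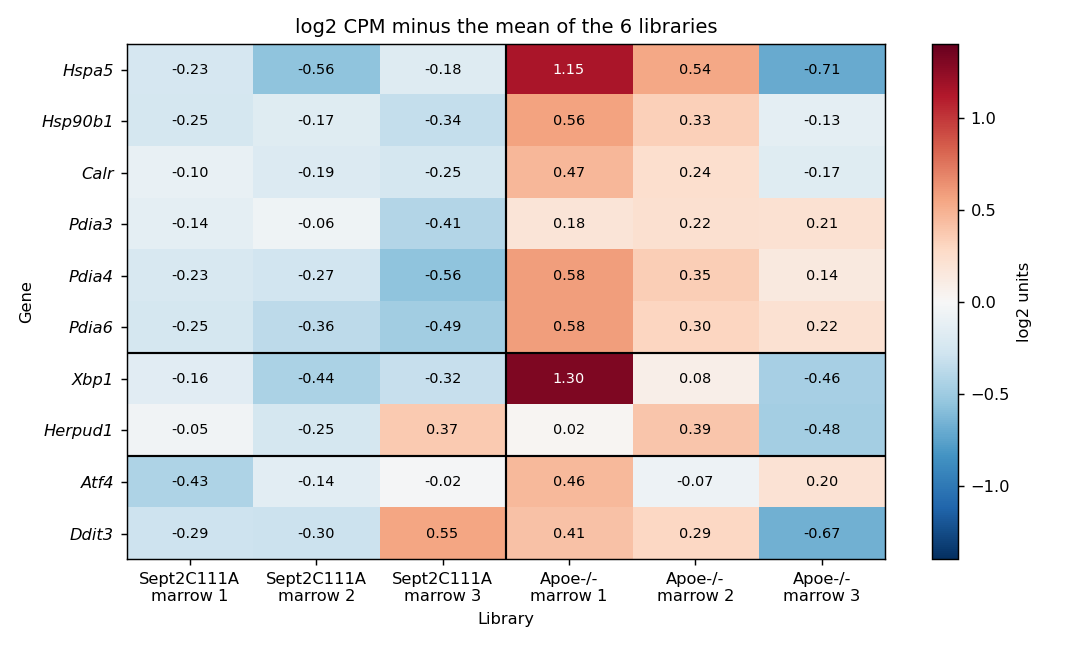
log2 CPM of each gene (rows) in each library (columns) minus its mean over the 6 libraries, red above and blue below. Apoe marrow library 1 is above 0 for all 10 genes, up to 1.305 for Xbp1, while Apoe marrow library 3 is above 0 for Pdia3, Pdia4, Pdia6 and Atf4 and below 0 for the other 6.

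The genes differed in how Apoe marrow library 3 stood, as the grid of deviations shows. That library held the lowest level of Hspa5, Xbp1, Herpud1 and Ddit3, but stood above every Sept2C111A marrow library for Hsp90b1, Pdia3, Pdia4, Pdia6 and Atf4. Apoe marrow library 1 held the highest level of 7 of the 10, the exceptions being Pdia3 and Herpud1, highest in Apoe marrow library 2, and Ddit3, highest in Sept2C111A marrow library 3. Sept2C111A marrow library 3 held the lowest level of 5 of the 10, Hsp90b1, Calr and the 3 isomerases. The SD was larger in the Apoe marrow group for 9 of the 10 genes.

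To find genes of like pattern, log2 CPM of the 6 chaperones was scaled to the same mean and SD per gene, then averaged. The gene whose log2 CPM over the 6 libraries was most like this average was Canx, calnexin, the membrane partner of calreticulin (Pearson r = 0.995, Spearman rho = 1). It stood at 413, 406 and 361 CPM in Sept2C111A marrow aortas, against 609, 526 and 436 CPM in Apoe marrow aortas. Ascc2, Lrrc58, Trim33 and Nvl came next (r = 0.978 to 0.992). Among 10248 genes searched, 128 had r above 0.9. The genes most like Atf4 were Patl1, Pde12, Ncbp3, Cnot1 and Slbp (r = 0.979 to 0.984), and 180 genes had r above 0.9. These values describe 6 libraries that share group, scaling and tissue make-up, and carry no test.

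Other genes of the pathway were described by lists. Among 33 other ER folding genes, 27 had a lower fitted level and the median log2 fold change was -0.28. edgeR called 0. At unadjusted p under 0.05 it gave 6 lower, against 8.83% of all genes, and 0 higher, against 6.17%. DESeq2 called 2 lower, against 2.89%. The groups were apart as lower for 11 of the 33, against 11.9% of all genes, and for 0 as higher, against 11.2%. Fkbp11, a prolyl isomerase of secretory cells, stood at 6.41, 8.23 and 3.73 CPM in Sept2C111A marrow aortas, against 14.3, 14.4 and 21.0 CPM in Apoe marrow aortas. Its log2 fold change was -1.43 (SE 0.34 by edgeR, adjusted p = 0.0101 by DESeq2). Mogs, the glucosidase that begins glycan trimming, stood at 34.2, 36.1 and 34.5 CPM in Sept2C111A marrow aortas, against 64.6, 48.3 and 49.2 CPM in Apoe marrow aortas (adjusted p = 0.0215 by DESeq2). Erp29, a folding assistant of the isomerase family, had a log2 fold change of -0.52 (SE 0.20, adjusted p = 0.323 by edgeR).

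Some ER stress genes of this list, chosen after their values were seen, were like Hspa5 highest in Apoe marrow library 1, next in Apoe marrow library 2, and far lower in Apoe marrow library 3. Manf, a secreted protein induced by ER stress, stood at 139, 113 and 137 CPM in Sept2C111A marrow aortas, against 342, 218 and 128 CPM in Apoe marrow aortas. Hyou1, an exchange factor for BiP, stood at 129.9, 100.5 and 142 CPM in Sept2C111A marrow aortas, against 331, 217 and 104 CPM in Apoe marrow aortas. Creld2 and Sdf2l1, both induced by ER stress, reached 107 and 53.0 CPM in Apoe marrow library 1. Creld2 was lowest in Apoe marrow library 3, as Hspa5 was, and the other 3 genes were lowest in Sept2C111A marrow library 2. Each of these 4 overlapped between groups.

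Genes that carry proteins into and out of the ER were lower in 25 of 26, with a median of -0.41. edgeR called 0. At unadjusted p under 0.05 it gave 12 lower, against 8.83% of all genes, and 0 higher, against 6.17%. DESeq2 called 3 lower, against 2.89%. The groups were apart as lower for 15 of the 26, against 11.9% of all genes. Sec61a1, the pore of the translocon, stood at 199, 232 and 179.9 CPM in Sept2C111A marrow aortas, against 334, 292 and 334 CPM in Apoe marrow aortas. Its log2 fold change was -0.65 (SE 0.16 by edgeR, adjusted p = 0.00783 by DESeq2). Sec61b, another subunit of that pore, had a log2 fold change of -0.51 (SE 0.13 by edgeR, adjusted p = 0.0513 by DESeq2). Lman1, a cargo receptor for export from the ER, had one of -0.58 (SE 0.15 by edgeR, adjusted p = 0.0365 by DESeq2). Tram1, a translocon partner, was the other gene DESeq2 called.

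Genes of ER degradation were lower in 21 of 24, with a median of -0.18. edgeR called 0, with 1 as lower at unadjusted p under 0.05, against 8.83% of all genes. DESeq2 called 0, against 2.89% of all genes as lower. The groups were apart as lower for 6 of the 24, against 11.9%. That gene at unadjusted p under 0.05 was Edem1, which draws misfolded glycoproteins to degradation, at 102, 104 and 83.2 CPM in Sept2C111A marrow aortas, against 221, 139 and 137 CPM in Apoe marrow aortas. Its log2 fold change was -0.78 (SE 0.23, adjusted p = 0.316 by edgeR). Selenos and Derl3, also of this route, had log2 fold changes of -0.35 and -1.33 (adjusted p = 0.334 and 0.336 by edgeR). Derl3 was low in every library, at 0.946, 0.442 and 0.334 CPM in Sept2C111A marrow aortas, against 2.23, 0.946 and 1.19 CPM in Apoe marrow aortas.

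Sensors and related factors of the response were lower in 15 of 16, with a median of -0.20. edgeR called 0, with 1 as lower at unadjusted p under 0.05, against 8.83% of all genes, and DESeq2 called 1 lower, against 2.89%. The groups were apart as lower for 4 of the 16, against 11.9%. The median was -0.13 without Sept2C111A marrow library 3 and also by limma-voom. The gene called was Eif2ak3, the sensor PERK upstream of Atf4, at 36.7, 40.3 and 36.2 CPM in Sept2C111A marrow aortas, against 58.8, 49.1 and 53.1 CPM in Apoe marrow aortas. Its log2 fold change was -0.51 (SE 0.12 by edgeR, adjusted p = 0.0208 by DESeq2). Creb3l3, a membrane-bound factor, and Eif2s1, the eIF2alpha subunit that PERK phosphorylates, had log2 fold changes of -1.20 and -0.41 (adjusted p = 0.343 and 0.349 by edgeR). Creb3l3 was low, at 1.05, 1.49 and 1.11 CPM in Sept2C111A marrow aortas, against 1.51, 2.00 and 4.90 CPM in Apoe marrow aortas. The sensors Ern1 and Atf6, chosen after their values were seen, overlapped between groups, with log2 fold changes of -0.36 (SE 0.23) and -0.12 (SE 0.13).

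Atf4 targets spread in both directions. Of 41 tested, 31 were lower and 10 higher, with a median of -0.26. edgeR called 0. At unadjusted p under 0.05 it gave 8 lower, against 8.83% of all genes, and 1 higher, against 6.17%. DESeq2 called 2 lower, against 2.89%. The groups were apart as lower for 11 of the 41, against 11.9%, and as higher for 2, against 11.2%. Unlike the pair Atf4 and Ddit3, the targets taken as a mean log2 CPM did not overlap between groups, at -0.18, -0.08 and -0.22 in Sept2C111A marrow aortas, against 0.27, 0.05 and 0.16 in Apoe marrow aortas. Slc7a11, the cystine transporter, stood at 1.26, 0.718 and 1.50 CPM in Sept2C111A marrow aortas, against 68.4, 5.73 and 26.9 CPM in Apoe marrow aortas. Its log2 fold change was -4.85 (SE 0.95, adjusted p = 0.316 by edgeR), and it is also a target of Nrf2. DESeq2 gave Slc7a11 an adjusted p of 1.03e-06. Chac1, which breaks down glutathione, had a log2 fold change of -2.08 (SE 0.57 by edgeR, adjusted p = 0.0206 by DESeq2). Both were highest in Apoe marrow library 1, then library 3, as were the summed neutrophil, platelet and erythroid markers. The part of these cells in the levels of Slc7a11 and Chac1 was not tested. Vldlr, a lipoprotein receptor, was on the other side of 0, at 71.6, 68.1 and 111 CPM in Sept2C111A marrow aortas, against 37.7, 57.2 and 26.0 CPM in Apoe marrow aortas. Its log2 fold change was 1.05 (SE 0.34 by edgeR, adjusted p = 0.0796 by DESeq2). The CARE letters were present in the promoters of 9 of the 34 target genes that had a window, Slc7a11, Chac1 and Vldlr among them.

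**Figure D4:**
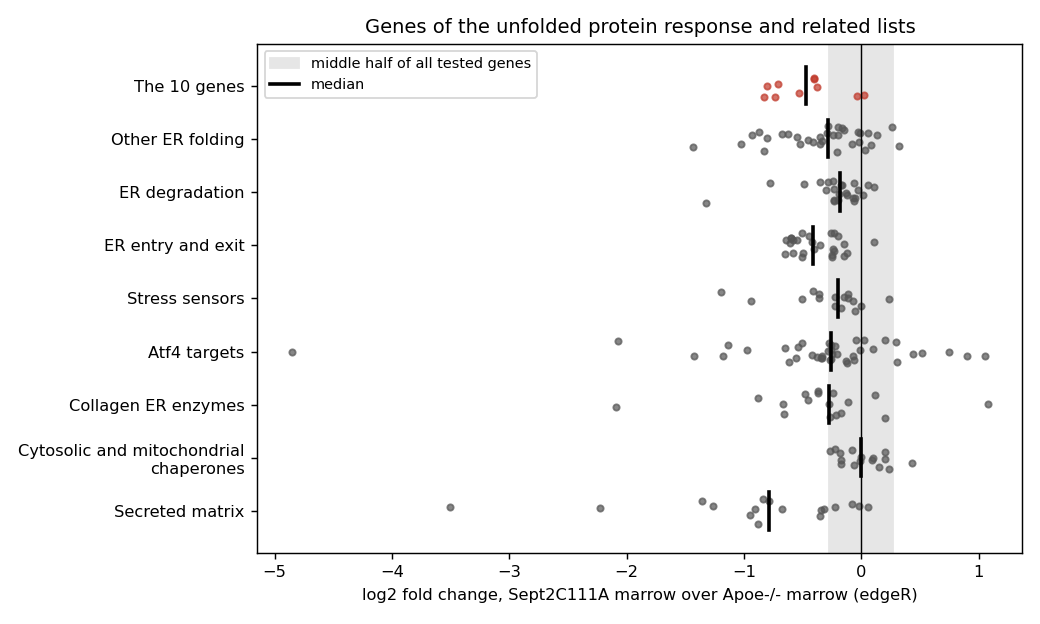
log2 fold change (Sept2C111A marrow over Apoe marrow, edgeR) of each gene in the 10 genes and 8 related lists, 1 point per gene, with the list median as a bar and the quartiles of all tested genes as a grey band. The median of the genes for ER entry and exit is -0.41, that of the cytosolic and mitochondrial chaperones is -0.01 (-0.27 to 0.15 with a library left out), and Slc7a11 lies farthest left at -4.85.

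Chaperones outside the ER had no settled direction, with medians of -0.27 to 0.15 when each library was left out in turn. Of 16 cytosolic and mitochondrial chaperones and their factors, 9 were lower and 7 higher, with a median of -0.01, and edgeR and DESeq2 called 0. edgeR gave 0 at unadjusted p under 0.05, against 8.83% of all genes as lower and 6.17% as higher. The groups were apart for 0 of the 16, against 11.9% of all genes as lower and 11.2% as higher. Hsf1, the factor of the heat shock response, and Dnajb1 and Bag3, co-chaperones of Hsp70, had log2 fold changes of 0.20, 0.43 and 0.15 (adjusted p = 0.555 to 0.722 by edgeR). Apoe marrow library 3 held the lowest level of 11 of the 16, and Sept2C111A marrow library 3 the highest of 8, which is also where Ddit3 was lowest and highest.

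Proteins that load the ER were described by the secreted matrix list and the collagen-modifying enzymes of the ER. Of 17 matrix genes 16 were lower, with a median of -0.78, which was -0.32 without Apoe marrow library 3, -0.48 without Sept2C111A marrow library 3 and -1.19 without Sept2C111A marrow library 2. edgeR called 0, with 3 as lower at unadjusted p under 0.05, against 8.83% of all genes. DESeq2 called 2 lower, Thbs1 and Timp1, against 2.89% of all genes. The groups were apart as lower for 3 of the 17, against 11.9% of all genes, and as higher for 0, against 11.2%. The log2 fold changes of Thbs1 and Timp1 were -3.51 (SE 0.88) and -2.23 (SE 0.62) by edgeR. Lox, the collagen and elastin cross-linking enzyme, had -1.26 (SE 0.43 by edgeR, adjusted p = 0.0659 by DESeq2). Summed over the list, the level was 56465, 81279 and 28180 CPM in Sept2C111A marrow aortas, against 58030, 77550 and 122727 CPM in Apoe marrow aortas. The order of this sum differed from that of Hspa5, since Apoe marrow library 3 was highest in matrix and lowest in Hspa5. Of 17 collagen-modifying genes 14 were lower, with a median of -0.27, which was -0.44 without Apoe marrow library 1 and -0.42 without Sept2C111A marrow library 2. For these genes edgeR and DESeq2 called 0. edgeR gave 0 at unadjusted p under 0.05, against 8.83% of all genes as lower and 6.17% as higher. For 1 of these 17 the groups were apart as lower, against 11.9% of all genes, and for 1 as higher, against 11.2%. P3h1, Mia3 and Plod3, which modify or export collagen, had log2 fold changes of -0.66, -0.27 and -0.37 (adjusted p = 0.350 to 0.360 by edgeR).

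**Figure D5:**
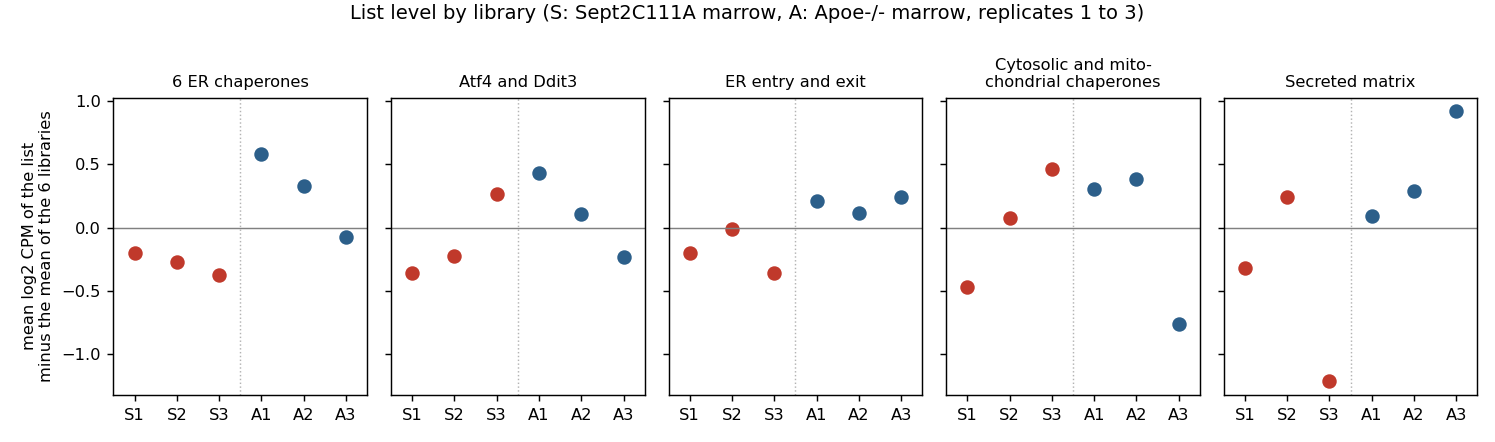
Mean log2 CPM of each list in each library minus the mean of the 6 libraries (vertical axis, log2 units), for Sept2C111A marrow (red, S) and Apoe marrow (blue, A). The 6 ER chaperones and the genes of ER entry and exit separate by group, whereas the Atf4 branch, the other chaperones and the matrix list overlap, with Apoe marrow library 3 at -0.76 for the other chaperones and 0.92 for the matrix. Not drawn are the other ER folding genes, ER degradation genes, sensors and Atf4 targets, whose means also separate by group.

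Of the 10 genes DESeq2 called in these lists, Slc7a11 and Thbs1 were called in each of the 6 fits with a library left out. The other 8 were called in 2 or 3 of the 6 fits. None of the 8 was called without Sept2C111A marrow library 3, and all 8 were called without Apoe marrow library 2. The calls over all genes moved the same way, with 96 lower without Sept2C111A marrow library 3 and 1027 lower without Apoe marrow library 2.

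Markers of other cells differed between the libraries beside these results. Over 7 macrophage markers, all detected in every library, the sum was 1631 to 2552 CPM in Sept2C111A marrow aortas and 1550 to 3644 CPM in Apoe marrow aortas. A lower fitted level was found for 6 of these 7, and DESeq2 called 0. Over 8 B cell and plasma cell markers, the sum was 60.5 to 112 CPM in Sept2C111A marrow aortas and 99.96 to 323 CPM in Apoe marrow aortas, with 6 of 7 tested lower and Mzb1, a plasma cell chaperone partner, at 0 in some libraries. Most of this sum was Sdc1, also present outside plasma cells, which averaged 78.6 CPM in Sept2C111A marrow aortas and 167 CPM in Apoe marrow aortas, while Jchain averaged 6.19 CPM and 3.63 CPM. Over 7 fibroblast markers, the sum was 10126 to 12405 CPM in Sept2C111A marrow aortas and 6959 to 25661 CPM in Apoe marrow aortas. DESeq2 called 3 of the 7 higher, against 0.985% of all genes. Col1a1, which the matrix list holds too, made up 22034 CPM of the highest sum and was the 1 fibroblast marker with a lower fitted level in the Sept2C111A marrow group. Over 6 markers of cycling cells, it was 32.9 to 128 CPM in Sept2C111A marrow aortas and 99.5 to 339 CPM in Apoe marrow aortas, with 6 of 6 lower. Over 5 platelet markers, it was 8.29 to 12.3 CPM in Sept2C111A marrow aortas and 24.5 to 214 CPM in Apoe marrow aortas. The neutrophil list, with 6 of 6 tested members called lower by DESeq2, against 2.89% of all genes, had Ly6g at 0 in some libraries. On the other side, 0 of 7 smooth muscle and 0 of 6 adipocyte markers had a lower fitted level, and DESeq2 called 0 of either. The adipocyte sum was 1546 to 3708 CPM in Sept2C111A marrow aortas and 653 to 2514 CPM in Apoe marrow aortas. The part of any of these cells in the chaperone levels was not tested.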

How the data were processed

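Poly(A) RNA of 6 aortas was sequenced, 3 per group, and 1 file of gene values was deposited per library. The authors deposited expected counts per gene, with no normalisation. Mapping and counting tools named in the submitters' processing notes are Bowtie2 and RSEM 1.3.1; DESeq2 1.4.5 and the build mm10 are named there too. The sources used here give no annotation, read filter or strand setting. In 1 Sept2C111A file the column heading carries another library number than the file, which was assigned by GEO's own sample record. Septin names stored as dates were restored.

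Expected counts were rounded and analysed in R 4.3.3. Genes were kept by filterByExpr (minimum count 10), which left 14466 of 18749, with TMM scaling. Groups were compared by edgeR 4.0.16 (quasi-likelihood F test, two-sided, no covariate), with Benjamini-Hochberg adjustment over all genes and a threshold of 0.05. DESeq2 1.42.0 and limma 3.58.1 (voom with quality weights) were other tests. CPM values use TMM-scaled totals; log2 CPM used a prior count of 2. Every sentence that names an adjusted p gives edgeR's or DESeq2's. Each SE and the fold change beside it are edgeR's, also where the adjusted p is DESeq2's. The SE is the fold change divided by the square root of F. The smallest adjusted p by edgeR over all genes was 0.316. The scripts were tested on simulated data. Positions are from GENCODE vM21 (mm10) and promoter windows from RefSeq (GRCm38.p6), which held all 10 genes. The 10 genes had at least 366 reads in each library. The design text gives 3 per group without saying that each library is 1 mouse. The p-values set the group difference against the spread between these samples, and apply to mice only if each library is a separate mouse. Within a group no library duplicated another (chi-square per degree of freedom 51.6 to 252).

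The members and gene lists were chosen with earlier results of these data known. Beyond the 10 genes, the text names the 3 genes of smallest p in each list, Septin2 and Apoe. It also names the 5 genes most like the average of the scaled chaperones and the 5 most like Atf4 in log2 CPM (mean CPM at least 10). Other genes were chosen after their values were seen.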

Additional observations from a re-analysis of the deposited data

How the results depend on the processing

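Hspa5, Hsp90b1, Calr, the 3 isomerases, Xbp1 and Atf4 were lower in Sept2C111A marrow aortas under every alternative tried: DESeq2, limma-voom, median-of-ratios size factors, no filter on low counts, unscaled library totals (chosen after seeing the data), the replicate block and each library left out. edgeR called 0 of the 10 under each of its settings, and limma-voom called 0, and each called 0 over all genes. DESeq2 called 2 of the 10, both lower, against 2.89% of all genes. In the 8 pathway lists, with 191 entries, edgeR and limma-voom called 0 genes. There DESeq2 called 10 lower, against 2.89% of all genes, and 0 higher, against 0.985%. With 1 library left out, DESeq2 called from 0 genes (without Sept2C111A marrow library 3) to 5 (without Apoe marrow library 3) of the 10. Over all genes these 2 fits called 96 and 267 lower.

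Herpud1, at 0.03 in all libraries, was -0.11 by limma-voom; with a library left out it ran from -0.17 to 0.26 by edgeR and from -0.18 to 0.26 by DESeq2. Ddit3, at -0.04, was 0.013 on unscaled totals and ran from -0.37 to 0.16 by edgeR and from -0.37 to 0.15 by DESeq2 with a library left out. The median of the cytosolic and mitochondrial chaperones, at -0.01, was 0.0039 without the filter and 0.041 on unscaled totals, and ran from -0.27 to 0.15 with a library left out. The cause was not tested.

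The labels do not say whether equal replicate numbers share a batch. Same-numbered libraries had correlations of 0.01, 0.15 and -0.17 in their deviations from the group means. Replicate 2 was the one number whose libraries correlated best with each other. With 3 libraries per group, these values cannot settle whether the numbers pair the samples. With the replicate block edgeR called 0 of the 10 genes and 0 in the lists (smallest adjusted p 0.383 over all genes, against 0.316 without it), and the median log2 fold change of the 10 was -0.46. Depth limits the precision of list genes near 1 CPM, such as Derl3, Creb3l3, and Slc7a11 in Sept2C111A marrow aortas (0.718 to 1.50 CPM). The part of depth in the calls was not tested.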
